A study of Mus musculus with 7 samples.

Results

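Among the 252 mouse miRNAs of the processed table, some entries resemble pieces of transfer RNA (tRNA) or ribosomal RNA (rRNA) rather than products of miRNA genes. Of these, 7 are examined here: mmu-miR-720, mmu-miR-1274a, mmu-miR-1937b, mmu-miR-1983, mmu-miR-2133, mmu-miR-2135 and mmu-miR-2138. They were chosen by name as early entries of miRBase, the miRNA sequence registry, and all 7 were detected on every array. The cells came from soft tissue sarcomas of p53 knocked out mice, so that all groups lack p53, and each group carried 1 short hairpin construct under selection with 2 ug/ml puromycin. Control primary cells (2 arrays) carried a non-target hairpin and Rb-depleted primary cells (2 arrays) a hairpin against Rb. Rb-depleted secondary cells (3 arrays) had formed spheres within 10 to 14 days in 1% methylcellulose without serum, with B27 and with EGF and bFGF at 10 ng/ml each, and were then passaged once on plastic. The age of the mice was not used here. The array has no probe for the Rb transcript, so the depletion was not checked on these arrays. The paper measured Rb in the transduced sarcoma cells by quantitative PCR and immunoblot. No array of control secondary cells, which the paper also prepared, is in the series. Between secondary and control primary cells, Rb depletion and passage through sphere culture therefore cannot be told apart. The series' design speaks of 2 or 3 independent experiments for each condition. It does not say whether these were separate cultures or tumors, and p-values below measure only the spread between these arrays.

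A miRNA is cut from a folded precursor by the nucleases Drosha and Dicer, and bases 2 to 8 of the mature strand, the seed, pair with target transcripts. tRNAs and rRNAs are far more abundant and are processed by other enzymes. Nucleases such as angiogenin cut tRNAs into fragments, and rRNA also gives small pieces, so libraries of small RNA hold many of them, and some entered the registry as miRNAs. A probe on an array reports any labelled RNA that pairs with it. Of the 7 entries, miR-720, miR-1274a, miR-1937b and miR-1983 are here called tRNA-like, and miR-2133, miR-2135 and miR-2138 rRNA-like. These 2 names follow general knowledge of the entries, and only the sequence of miR-1983 and the annotated hairpin of miR-720 could be examined.

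The RefSeq table of mouse miRNAs held a sequence for 1 of the 7 entries, miR-1983, and the GENCODE annotation of NCBIM37, the genome build named in the scanner files, held a hairpin for 2, miR-1983 and miR-720. The mature strand of miR-1983 is shown with its seed in capitals, and its hairpin with the mature strand in capitals, because the hairpin carries the features of a tRNA gene.
mmu-miR-1983 mature: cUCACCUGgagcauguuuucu
mmu-miR-1983 hairpin: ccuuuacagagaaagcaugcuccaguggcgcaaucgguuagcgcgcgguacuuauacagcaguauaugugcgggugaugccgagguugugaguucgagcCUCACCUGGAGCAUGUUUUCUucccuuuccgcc
Both were printed from RefSeq (GRCm38.p6, chr13:21896918-21897049, minus strand). The same 132 bases lie at chr13:21988787-21988918 on the minus strand of NCBIM37 (Mir1983, ENSMUSG00000088148), where no other annotated gene overlaps them and where they occur once in the genome. RNA polymerase III starts tRNA genes from 2 internal promoter elements, the A box and the B box. The B box was searched as GTTCGANNC on both strands and was found in 5 of 1005 RefSeq mouse hairpins (0.498%). In the miR-1983 hairpin it stands at positions 92 to 100 as gttcgagcc, and its last base is the first base of the mature strand. A match to the A box lies upstream of it at positions 26 to 37. An A box followed by a B box on the sense strand was found in 1 of the 1005 hairpins (0.0995%), that of miR-1983. The longest exact inverted repeat of the hairpin had arms of 10 bases at positions 16 to 25 and 105 to 114, which flank both boxes as the acceptor stem does in a tRNA, and its second arm lies inside the mature strand. The seed of miR-1983 was shared by 1 other of the RefSeq mature mouse miRNAs, miR-412-3p.

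The hairpin annotated as Mir720 (ENSMUSG00000076048) is shown with the arms of its longest exact inverted repeat in capitals, because it differs from the hairpin of miR-1983 in this respect.
Mir720 hairpin: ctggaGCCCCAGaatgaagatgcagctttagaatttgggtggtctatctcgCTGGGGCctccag
It spans 64 bases at chr3:88920531-88920594 on the minus strand of NCBIM37, with no overlapping annotated gene and 1 copy in the genome. Its repeat had arms of 7 bases at positions 6 to 12 and 52 to 58, and the hairpin held no match to the B box.

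Each array was hybridized with 1 labelled RNA preparation made from 100 ng of total RNA, and the labels give an RNA integrity number of 10 for every sample. The scanner software sums the brightness of all probes of an entry into its total gene signal, in intensity units, so precision depends on how many arrays there are. The summed signal of the 252 miRNAs ranged from 432616 to 550498 over the arrays. Mesenchymal marker miRNAs were present (5 of 5 on all arrays), and of the markers of other cell types only miR-206, one of 3 of skeletal muscle, was detected. The 5 epithelial, 2 blood, 1 liver and 1 neuronal markers were detected on no array. The 4 arrays of primary cells shared a slide with replicate 1 of the secondary cells, and replicates 2 and 3 of the secondary cells lay on the second slide. In bulk RNA of this kind, fewer cells of a type and less RNA per cell cannot be told apart.

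The 7 entries together held 42.3% and 39.0% of the summed signal of the 252 miRNAs on the control arrays, 41.0% and 40.5% on the Rb-depleted primary arrays, and 43.0%, 44.3% and 45.6% on the secondary arrays. The 3 secondary arrays thus lay above the other 4. The shares of the 2 kinds of entry moved in opposite directions from control to secondary cells. The total gene signal of the 7 entries together did not rise. It came to 232808 and 210084 on the control arrays and 202722, 197142 and 202814 on the secondary arrays. The 4 tRNA-like entries held 36.6% ± 2.3 (SD, n = 2) on the control arrays, 38.1% ± 0.1 (SD, n = 2) on the Rb-depleted primary arrays and 42.7% ± 1.4 (SD, n = 3) on the secondary arrays. For this sum control primary replicate 1 stood at 38.2%, as did Rb-depleted primary replicate 1. Within this sum the mean share from control to secondary cells went from 28.3% to 33.7% for miR-1937b and from 6.25% to 7.26% for miR-720, but from 2.04% to 1.65% for miR-1274a and from 0.0139% to 0.00753% for miR-1983. The 3 rRNA-like entries held 4.07% ± 0.019, 2.62% ± 0.22 and 1.62% ± 0.12 in the same order (SD, n = 2, 2 and 3). No value of one group overlapped another, and how often other miRNAs separated in this way was not counted. No test was made on these sums, since their parts were chosen together. These are shares of brightness, and probes differ in how strongly they bind, so they are not shares of molecules.

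**Figure D1:**
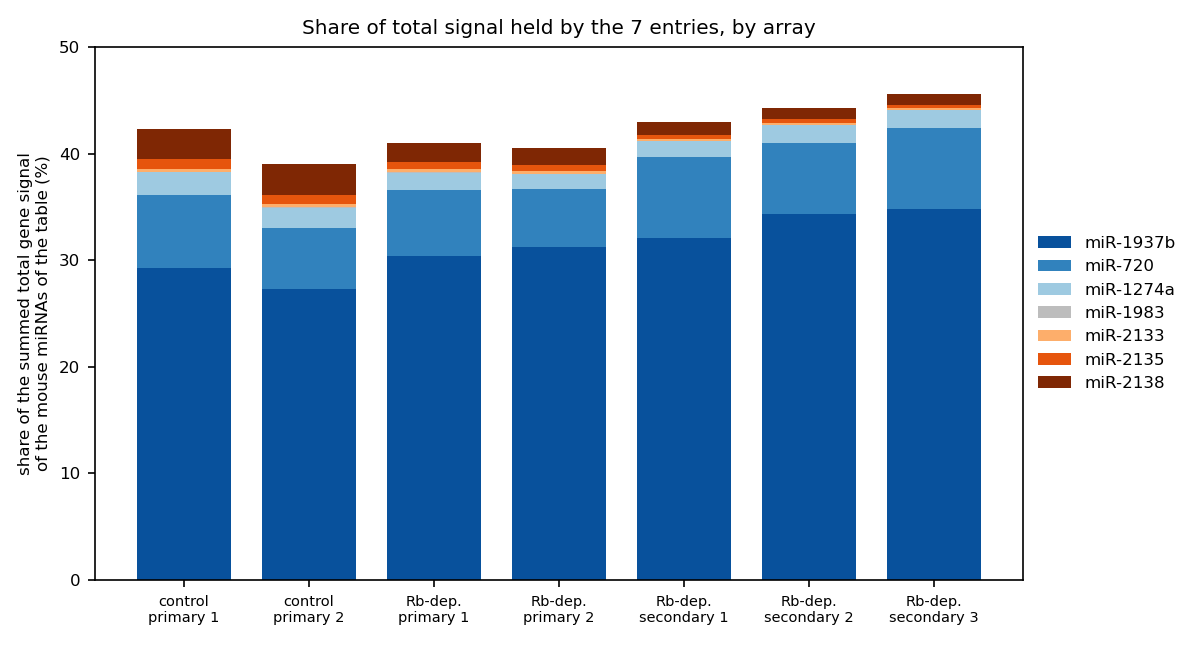
Share of the summed total gene signal of the 252 mouse miRNAs (vertical axis, percent) held by each of the 7 entries on each of the 7 arrays (stacked bars). Blue parts are miR-1937b, miR-720 and miR-1274a, and orange to brown parts are the rRNA-like entries, which shrink from 4.07% on average in control primary cells to 1.62% in Rb-depleted secondary cells while the sum of the blue parts grows. The share of miR-1983 is too small to be seen.

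miR-1937b was the brightest of the 252 miRNAs on every array, with a mean share of 31.3%, ahead of miR-21 with 13.1% and miR-720 with 6.56%. Its total gene signal came to 161059 and 146919 on the control arrays, 152292 and 134881 on the Rb-depleted primary arrays, and 151523, 152585 and 154859 on the secondary arrays. The groups overlapped. The sum of all miRNAs was lower in Rb-depleted cells, and the share of miR-1937b moved with it. This share came to 29.3% and 27.3% on the control arrays and 30.4% and 31.2% on the Rb-depleted primary arrays. On the secondary arrays it was 32.1%, 34.3% and 34.8%. The shares did not overlap between groups, and how many of the 252 miRNAs also separated on shares was not counted. On log2 shares in limma, the difference between secondary and control cells was 0.26 (SE 0.10) for miR-1937b and missed the threshold after Benjamini-Hochberg adjustment over the 252 miRNAs (adjusted p = 0.104, limma). The processed table gives miR-1937b the value 17.20 on all 7 arrays. Quantile normalization replaces each feature by the average of the features of its rank, and miR-1937b held the same rank on every array, the second of 718 features behind 1 control feature, although its log2 signal spanned 0.256. The deposited values therefore hold no information on a change of miR-1937b.

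miR-720, the third brightest miRNA, gave a total gene signal of 37264 and 30905 on the control arrays, 30865 and 23694 on the Rb-depleted primary arrays and 35587, 29587 and 33807 on the secondary arrays. The array of Rb-depleted primary replicate 2 was the lowest, and the other 6 overlapped between groups. The deposited log2 value was 15.01 on all control and secondary arrays and 14.59 on both arrays of Rb-depleted primary cells. The entry stood at rank 6 of the 718 features on the former and at rank 7 on the latter, so the difference of 0.42 is the step between 2 ranks, and the absence of spread within groups comes from the normalization. In limma this step was called between secondary and Rb-depleted primary cells (0.42, SE 0.06, adjusted p = 0.0159) and missed the threshold between Rb-depleted primary and control cells (-0.42, SE 0.07, adjusted p = 0.0583). Ranked among the 252 miRNAs alone, miR-720 was always the third and its differences were 0.00 on the log2 scale. On log2 shares the difference of 0.32 (SE 0.13) between secondary and Rb-depleted primary cells missed the threshold too (adjusted p = 0.11, limma). The call was also lost without Rb-depleted primary replicate 2 (adjusted p = 0.0838, limma) and with slide as a term (adjusted p = 0.0704, limma).

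**Figure D2:**
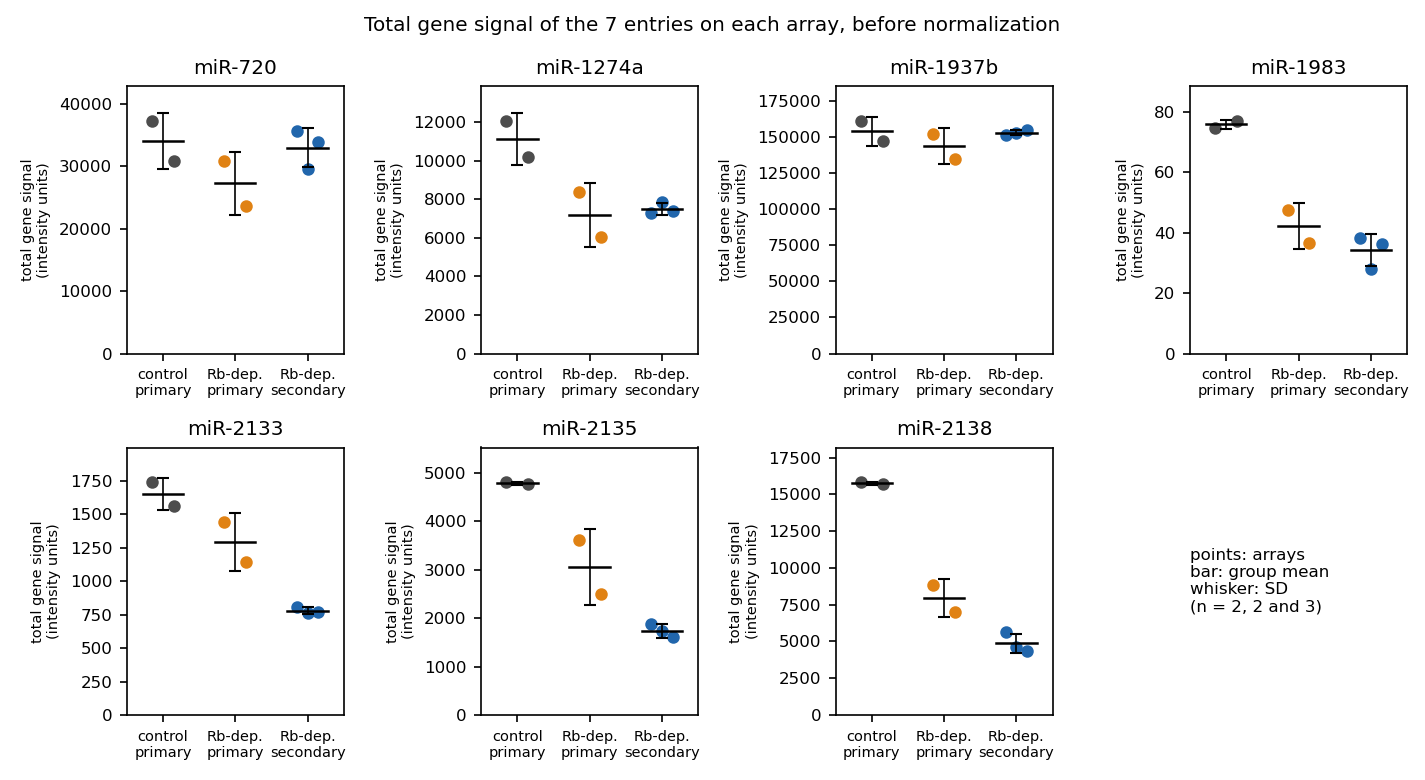
Total gene signal of each entry (vertical axes, intensity units from 0, before normalization) in the 3 groups, with points for arrays, horizontal bars for group means and whiskers for the SD (n = 2, 2 and 3). Every secondary array lies below both control arrays for miR-1274a, miR-1983, miR-2133, miR-2135 and miR-2138, while the groups overlap for miR-720 and miR-1937b. On this scale the median log2 shift of all miRNAs between secondary and control cells was -0.46. The share of all miRNAs that separated in this way was not counted.

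miR-1274a, whose row of the table matched by value the feature named mmu-miR-5097 in the scanner files, gave 12057 and 10170 on the control arrays, 8365 and 6020 on the Rb-depleted primary arrays, and 7280, 7835 and 7372 on the secondary arrays. All 5 arrays of Rb-depleted cells were below both control arrays. On the deposited scale the order was different: the means were 12.96 in control, 12.78 in Rb-depleted primary and 13.21 in Rb-depleted secondary cells. The difference between secondary and control cells was 0.25 (SE 0.14) on the deposited log2 scale, -0.30 (SE 0.13) on log2 shares and -0.56 (SE 0.17) with no normalization, and of these only the last passed (adjusted p = 0.0338, limma; 0.272 and 0.133 for the others). The direction of miR-1274a between these groups thus depended on the scaling.

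miR-1983, by its sequence the entry with the features of a tRNA gene, was the dimmest of the 7, with 74.83 and 77.02 on the control arrays, 47.65 and 36.72 on the Rb-depleted primary arrays and 38.18, 28.14 and 36.3 on the secondary arrays. Both control arrays were above all 5 arrays of Rb-depleted cells, and the latter groups overlapped. Its deposited log2 value fell from 5.91 ± 0.006 (SD, n = 2) in control cells to 5.30 ± 0.179 (SD, n = 3) in secondary cells, a difference of -0.61 (SE 0.12, 1.53-fold lower, adjusted p = 0.0246, limma). The mean in Rb-depleted primary cells was 5.42, a difference from control of -0.49 (SE 0.13, adjusted p = 0.113, limma). Secondary and Rb-depleted primary cells differed by -0.12 (SE 0.12, adjusted p = 0.481, limma). The call against control was lost without control primary replicate 1 (adjusted p = 0.138), control primary replicate 2 (adjusted p = 0.105) or Rb-depleted secondary replicate 1 (adjusted p = 0.053) in limma, with slide as a term (adjusted p = 0.125), with scaling to the 75th percentile (adjusted p = 0.0647), and with the median spot signal (adjusted p = 0.0566). The dimmer of its 2 probes read 2.617 to 12.83 units and varied by up to 183% between its spots on an array.

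Among the rRNA-like entries, miR-2138 had the largest differences from control on the deposited scale. Its total gene signal came to 15812 and 15682 on the control arrays, 8837 and 7010 on the Rb-depleted primary arrays and 5609, 4611 and 4368 on the secondary arrays. The 3 groups did not overlap. The mean of control cells was 1.99 times that of Rb-depleted primary and 3.24 times that of Rb-depleted secondary cells. These ratios include the median log2 shift of all miRNAs without normalization, -0.26 in Rb-depleted primary and -0.46 in secondary cells relative to control. How many of all miRNAs also showed no overlap was not counted, here or for the other entries. The brightness of miR-1937b came to 10.2 and 9.37 times that of miR-2138 on the control arrays, 17.2 and 19.2 times on the arrays of Rb-depleted primary cells and 27.0, 33.1 and 35.4 times on those of secondary cells, a ratio of total gene signals within an array, which no single factor applied to a whole array changes, although quantile normalization can. On the deposited log2 scale miR-2138 fell by 1.32 in secondary cells (SE 0.10, 2.5-fold lower, adjusted p = 0.00629, limma) and differed by -0.64 in Rb-depleted primary cells (SE 0.11, adjusted p = 0.0691, limma). From Rb-depleted primary to secondary cells it fell by 0.68 (SE 0.10, adjusted p = 0.0159, limma). The call of secondary against control cells was lost, of the 7 arrays left out in turn, only without control primary replicate 1 (-1.36, adjusted p = 0.053, limma), and it held with slide as a term, where the secondary cells are represented by replicate 1 alone, the array hybridized beside the primary cells (-1.16, SE 0.09, adjusted p = 0.0363, limma). The call of secondary against Rb-depleted primary cells was lost without Rb-depleted primary replicate 1 (adjusted p = 0.0557, limma) or replicate 2 (adjusted p = 0.0838, limma), with slide as a term (-0.52, adjusted p = 0.0684, limma), with scaling to the 75th percentile (-0.49, adjusted p = 0.1, limma) and with the median spot signal (-0.62, adjusted p = 0.0686, limma).

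miR-2135 gave 4805 and 4768 on the control arrays, 3608 and 2502 on the Rb-depleted primary arrays and 1879, 1732 and 1604 on the secondary arrays, again without overlap. The SD of the 2 arrays of Rb-depleted primary cells was 25.6% of their mean, against 0.546% in control and 7.92% in secondary cells. On the deposited log2 scale miR-2135 fell by 1.01 in secondary relative to control cells (SE 0.15, 2.02-fold lower, adjusted p = 0.0121, limma). Against control, Rb-depleted primary cells differed by -0.52 (SE 0.17), and secondary cells differed from them by -0.50 (SE 0.15), and both missed the threshold (adjusted p = 0.142 and 0.0702, limma). The call of secondary against control cells was lost without control primary replicate 1 (adjusted p = 0.091), control primary replicate 2 (adjusted p = 0.0834) or Rb-depleted secondary replicate 1 (adjusted p = 0.0508) in limma, and with slide as a term (-1.05, adjusted p = 0.0751). Without Rb-depleted primary replicate 1, the difference from control passed in Rb-depleted primary cells (-0.76, adjusted p = 0.0326, limma).

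miR-2133 gave 1736 and 1563 on the control arrays, 1442 and 1140 on the Rb-depleted primary arrays and 806.4, 764.1 and 766.9 on the secondary arrays. The 3 groups did not overlap, and the largest gap lay before the secondary cells. On the deposited log2 scale miR-2133 fell by 0.71 in secondary relative to control cells (SE 0.07, 1.64-fold lower, adjusted p = 0.0064, limma) and by 0.56 relative to Rb-depleted primary cells (SE 0.07, adjusted p = 0.0146, limma). Rb-depleted primary and control cells differed by -0.16 (SE 0.08, adjusted p = 0.268, limma). The call against control was lost without control primary replicate 1 (-0.67, adjusted p = 0.0613, limma) and held with slide as a term (-0.69, adjusted p = 0.0428, limma). The call against Rb-depleted primary cells was lost without Rb-depleted primary replicate 2 (adjusted p = 0.0824, limma), with slide as a term (-0.54, adjusted p = 0.0606, limma) and with scaling to the 75th percentile (-0.50, adjusted p = 0.0751, limma).

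Over all 3 groups, 5 of the 7 entries passed the moderated F-test of limma at an adjusted p of 0.1 (miR-720, miR-1983, miR-2133, miR-2135 and miR-2138), beside 43.3% of the 252 miRNAs. In Rb-depleted primary against control cells, 0 of 7 passed at an adjusted p of 0.05 in limma, beside 1.59% of all 252, while 4 of 7 had an unadjusted p under 0.05, beside 25.4% of all 252. The classical contrasts without moderation could not be fitted for 2 of 7 (miR-720 and miR-1937b, which had no spread). They called 0 of the 250 fitted miRNAs after adjustment, and 4 of the 7 entries were under 0.05 before it, beside 21.6% of the fitted miRNAs. Between secondary and control cells, 4 of 7 were lower (1 of the 4 tRNA-like and 3 of the 3 rRNA-like entries), beside 9.52% of all 252 that were lower, and 0 were higher, beside 13.1%. Between secondary and Rb-depleted primary cells, 2 of 7 were lower, beside 7.54%, and 1 was higher, beside 12.7%. The comparisons share arrays and are not independent. The median log2 difference between secondary and control cells was -1.01 over the rRNA-like entries, 0.00 over the tRNA-like entries and 0.03 over all 252 miRNAs. In Rb-depleted primary cells the medians relative to control were -0.52, -0.30 and 0.01. Without normalization, the median of all 252 miRNAs stood at -0.46 in secondary and -0.26 in Rb-depleted primary cells relative to control, and the normalized values are relative to this shift.

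The second step of the study, made there on classical tests, keeps miRNAs that pass the F-test and then Dunnett's test against control in both Rb-depleted groups in the same direction. With Dunnett's adjustment of the limma contrasts, 3 of the 7 entries met it, all lower, beside 6.75% of all 252 in either direction and 4.37% lower. These were miR-1983, miR-2135 and miR-2138. The Dunnett-adjusted p was 0.0181 in Rb-depleted primary and 0.00443 in secondary cells for miR-1983. It was 0.0405 and 0.00125 for miR-2135, and 0.00279 and under 0.05 for miR-2138. On the moderated contrasts miR-2133 passed in secondary cells only (under 0.05 against 0.147), and miR-720 in Rb-depleted primary cells only (0.00194 against 1). With classical tests without moderation, 3 of 7 again met the step, beside 5.2% of the 250 fitted miRNAs, but they were miR-1983, miR-2133 and miR-2138. None of these entries, nor those from the limma contrasts, is on the list that the paper reports from its own tests. Why the lists differ was not tested. In the classical tests made here the Dunnett-adjusted p of miR-2133 was 0.0228 in Rb-depleted primary and under 0.05 in secondary cells. There miR-2135 missed the threshold in Rb-depleted primary cells (0.0741 against 0.00571). The Dunnett-adjusted p-values are adjusted for the 2 comparisons with control and not over miRNAs. Their numerical integration was too coarse for the smallest of them, which are given only as under 0.05. Under Benjamini-Hochberg adjustment, 0 of 7 passed in both. Without control primary replicate 1, control primary replicate 2 or Rb-depleted primary replicate 2, 1 of the 7 met the step, miR-2138. Without any 1 of the other 4 arrays, 2 met it, miR-2138 with miR-2135 (without Rb-depleted primary replicate 1) or with miR-1983 (without a secondary array).

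On log2 shares of the summed signal, 4 of 7 entries were lower in secondary than in control cells, beside 22.6% of all 252, and 0 were higher, beside 5.56%. miR-2138 differed by -1.44 (SE 0.12, adjusted p = 0.000619), miR-2135 by -1.20 (SE 0.13, adjusted p = 0.00169), miR-1983 by -0.90 (SE 0.15, adjusted p = 0.00681) and miR-2133 by -0.82 (SE 0.10, adjusted p = 0.00328) in limma. On this scale 1 of 7 was also lower in Rb-depleted primary than in control cells, miR-2138 (-0.78, SE 0.13, adjusted p = 0.046, limma), beside 1.98% of all 252. Relative to Rb-depleted primary cells, all 3 rRNA-like entries were lower in secondary cells, beside 18.3%, and 0 of 7 were higher, beside 9.13%.

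**Figure D3:**
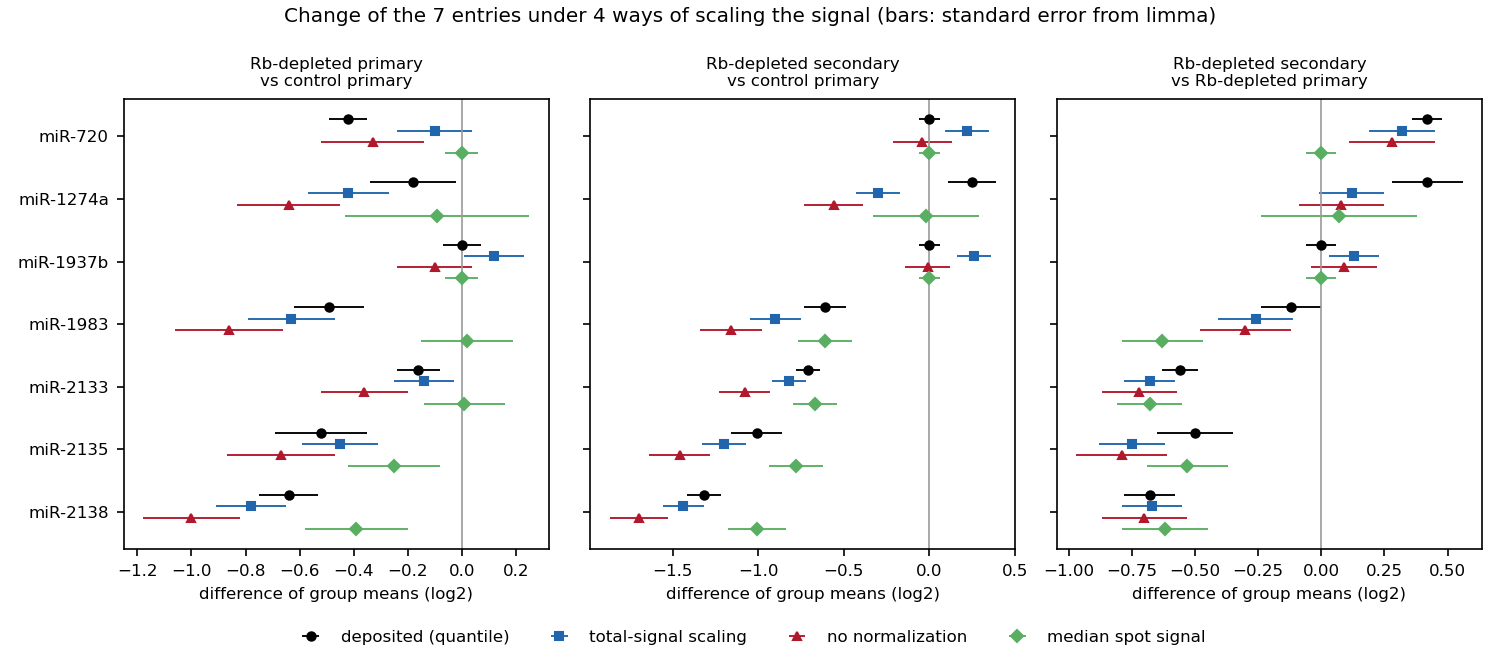
Difference of group means of each entry (horizontal axes, log2) in the 3 comparisons, with bars for the standard error from limma, on the deposited values (black circles), after scaling to the summed signal (blue squares), with no normalization (red triangles) and from the median spot signal after quantile normalization (green diamonds). In secondary against control cells miR-2133, miR-2135 and miR-2138 lie left of 0 under all 4 scalings, whereas miR-1274a lies at 0.25 on the deposited values and at -0.56 with no normalization.

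Each entry was read by 20 spots on an array, from 2 probes of 10 spots, or for miR-2135 from 3 probes of 7, 7 and 6. For the rRNA-like entries the probes gave close values: before normalization the log2 differences between secondary and control cells were -1.78 and -1.64 for the 2 probes of miR-2138, the 3 probes of miR-2135 stood at -1.61, -1.49 and -1.35, and the 2 probes of miR-2133 at -1.13 and -1.10. The probes of miR-1983 differed more, with -1.48 and -1.16. The 2 probes of miR-1937b stood on either side of 0, at -0.07 and 0.01. Probes of an entry share a target and an array and are not replicates. The scanner's own error estimate for an entry lay between 5.83% and 13.6% of its signal, none of the 980 readings of member spots was marked as saturated, and 53 were marked as outliers.

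**Figure D4:**
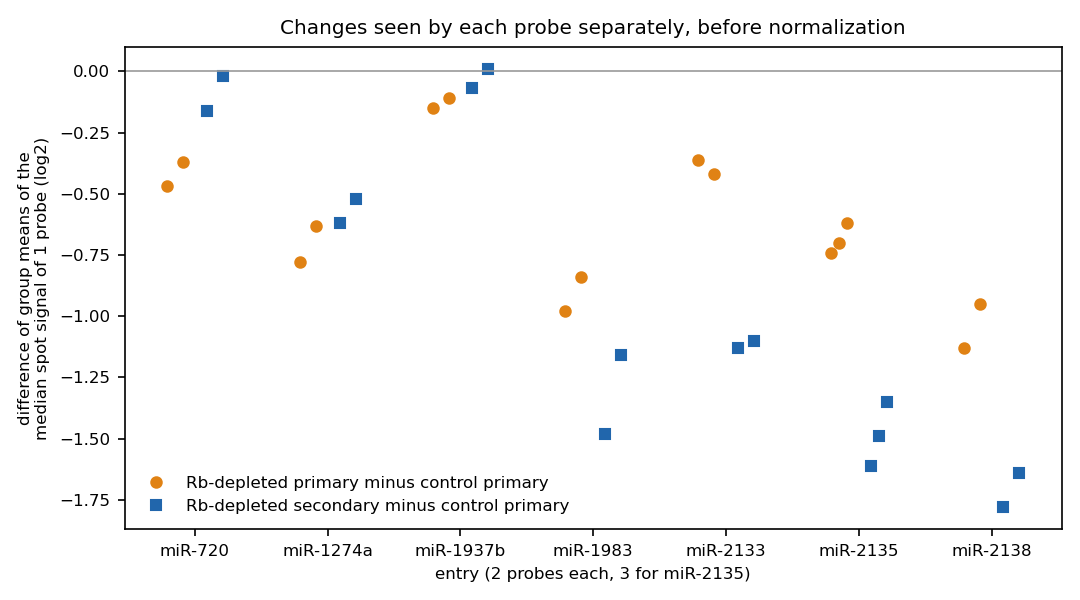
Difference of group means of the median spot signal of single probes (vertical axis, log2, before normalization) for Rb-depleted primary (orange circles) and secondary cells (blue squares) against control primary cells. The secondary-cell values of the probes of miR-1983 lie farthest apart, at -1.48 and -1.16, and the probes of miR-2138 are the lowest in secondary cells, at -1.78 and -1.64.

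Other entries of the same kind were listed by their numbers in the registry or as known products of other structural RNAs, 15 in all on the array. Of these, 11 were detected on all 7 arrays and are in the table, and 4 (miR-2136, miR-2139, miR-664-3p and miR-712-3p) were detected on none. Between secondary and control cells, 5 of the 11 were lower in limma (miR-2132, miR-2137, miR-2140, miR-2141 and miR-2145) and 1 was higher (miR-1839-3p, from a small nucleolar RNA), beside 9.52% and 13.1% of all 252. The 5 that were lower are among the 7 listed entries numbered between miR-2132 and miR-2146, whose median difference was -0.95. They ranged from -1.02 (miR-2145, SE 0.14, adjusted p = 0.0106) to -0.89 (miR-2141, SE 0.19, adjusted p = 0.0298). The total gene signal of miR-2145 came to 14935 and 11210 on the control arrays and 9420 and 6635 on the Rb-depleted primary arrays. On the secondary arrays it was 4306, 4603 and 4201. The groups did not overlap, and the share of all miRNAs without overlap was not counted. The other 2 of this series, miR-2134 (-0.58, SE 0.24, adjusted p = 0.146) and miR-2146 (-0.10, SE 0.09, adjusted p = 0.46), missed the threshold against control. The tRNA-like neighbor of miR-1937b by number, miR-1937c, gave 2491 and 2266 on the control arrays, 2141 and 1827 on the Rb-depleted primary arrays and 2237, 1939 and 2039 on the secondary arrays, and its difference of 0.16 (SE 0.09) missed the threshold (adjusted p = 0.254, limma). miR-712, from a spacer of the rRNA precursor, was at 0.30 (SE 0.12, adjusted p = 0.137, limma). In Rb-depleted primary against control cells, 0 of the 11 passed in limma, beside 1.59% of all 252. Of the 11, 1 met the step with Dunnett's test, miR-1839-3p, which was higher.

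**Figure D5:**
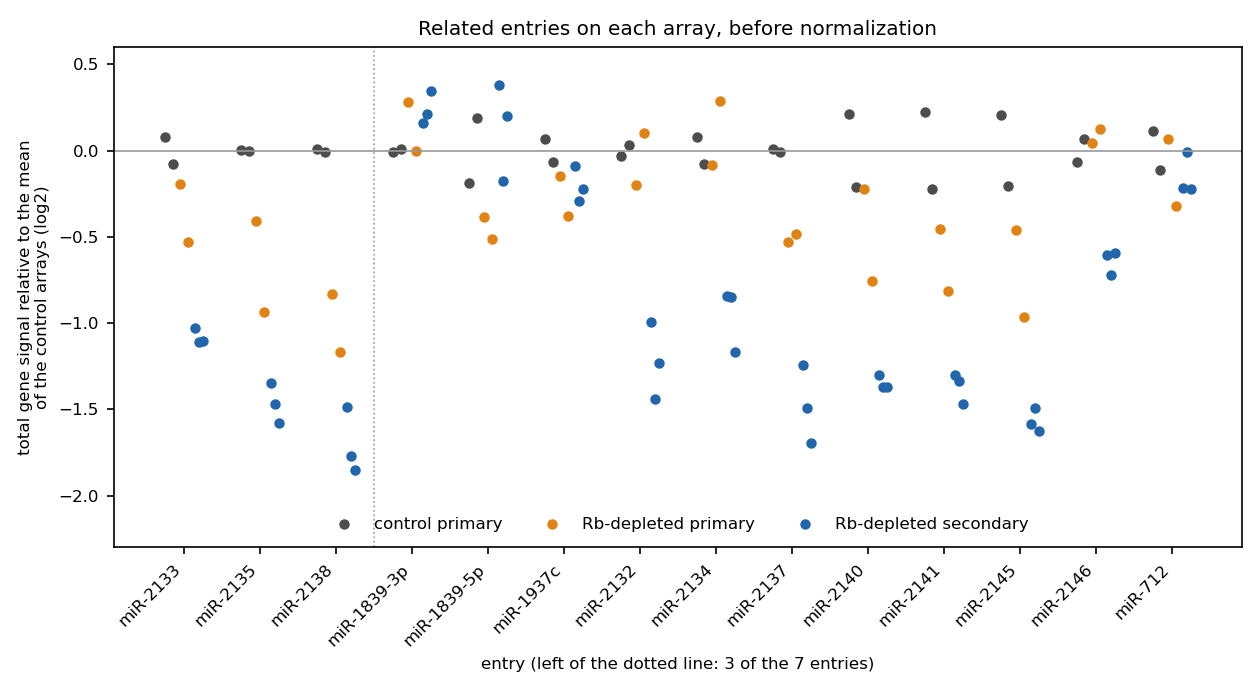
Total gene signal of the 3 rRNA-like entries (left of the dotted line) and of the 11 other listed entries on each array, relative to the mean of the control arrays (vertical axis, log2, before normalization). Secondary arrays (blue) lie below all control arrays (grey) for miR-2133, miR-2135 and miR-2138 and for the 7 entries from miR-2132 to miR-2146. They also lie below them, by less, for miR-1937c. For miR-1839-3p they lie slightly above, and for miR-1839-5p and miR-712 they overlap. The share of all miRNAs that separated between these groups was not counted. Without normalization, the median log2 shift of all miRNAs between secondary and control cells was -0.46.

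The likeness of profiles was measured as the root mean square difference of deposited log2 values over the 7 arrays after each miRNA was centred on its mean. The nearest profiles to miR-2135 were those of miR-2140 (0.126) and miR-2145 (0.168), entries of its own number series. miR-2138 was closest to miR-1224 (0.166) and miR-188-5p (0.173), and miR-2133 to miR-1982* (0.128) and miR-324-5p (0.147). The nearest profiles to miR-1983 were miR-345-5p (0.144) and miR-127 (0.174), to miR-1274a miR-19b (0.110) and miR-30e (0.116), and to miR-720 miR-299* (0.073) and miR-410 (0.091). For miR-1937b, whose profile is flat by normalization, the nearest were other flat profiles, let-7c (0.045) and miR-30a (0.047).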

How the data were processed

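Total RNA was labelled with Cy3 and hybridized to Agilent mouse miRNA arrays (Rel. 15.0 design). The authors extracted spot and gene intensity values with Agilent Feature Extraction (version 10.7.3.1 in the submitters' processing notes, 11.0.1.1 in the file headers) and deposited log2 values after quantile normalization in GeneSpring GX 12.6.1, for 252 mouse miRNAs and 11 control rows. The control rows were left out. Quantile normalization of the log2 total gene signal of 718 features gave the deposited log2 values to within 3.2e-06, and rows were matched to scanner features by these values, since only 77 of 252 names agree between the files. The members, lists and tests were chosen with earlier results of these data known.

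Deposited values were fitted in limma 3.58.1 (R 4.3.3) with a mean for each group over all 7 arrays. The F-test threshold was an adjusted p of 0.1, and contrasts were called at 0.05, with Benjamini-Hochberg adjustment over the 252 miRNAs. Dunnett's adjustment of the moderated contrasts was computed by numerical integration. Shares are total gene signal over its sum in the 252 miRNAs, and log2 shares were fitted in the same model. Named miRNAs are the 7 members, the 2 nearest profiles of each, a list of related entries and the 3 brightest miRNAs. Sequences came from RefSeq (GRCm38.p6) and the NCBIM37 genome with GENCODE M1, read in Python 3.11.15 (pandas 2.3.3, numpy 2.4.6, matplotlib 3.10.9). The fits were tested on simulated data with independent normal noise. In these, 60 of 252 miRNAs were changed by 1 log2 unit in secondary cells. Over 20 runs, 82.2% of these were called against control on average, and 5.42% of the calls were false. Smaller changes were not simulated. Alternatives were other scalings, a wider set of 312 miRNAs with a floor of 1 on the signal, other tests, the slide, the replicate number, the median spot signal and each array left out. RNA-seq and other experiments of the paper were not used here.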

Additional observations from a re-analysis of the deposited data

Results flagged for a closer look

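Of the 7 entries, 3 differed between the Rb-depleted groups in the test of that difference itself, secondary against Rb-depleted primary cells, in limma with adjustment over the 252 miRNAs, beside 20.2% of all 252. miR-2138 differed by -0.68 (SE 0.10, adjusted p = 0.0159) and miR-2133 by -0.56 (SE 0.07, adjusted p = 0.0146). In both, every secondary array was below every array of Rb-depleted primary cells. How many of all 252 miRNAs separated between these groups was not counted, so this adds no support to the calls. miR-720 differed by 0.42 (SE 0.06, adjusted p = 0.0159), which is the step between 2 neighbouring ranks of the normalization, and its total gene signals overlapped between these groups. All 3 calls were lost with slide as a term (adjusted p = 0.0684 for miR-2138, 0.0606 for miR-2133 and 0.0704 for miR-720, limma), with the replicate block (0.114, 0.101 and 0.114) and with scaling to the 75th percentile (0.1, 0.0751 and 0.125).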

How the results depend on the processing

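The 5 entries called by the F-test became 1 with the replicate block, 3 with slide as a term and between 3 and 6 when 1 array was left out. The 0 entries called between Rb-depleted primary and control cells became 1 with total-signal scaling, with or without the 7 entries in the sum (miR-2138), 2 with no normalization, 2 with trend and robust moderation, and between 0 and 2 when 1 array was left out. The 4 called between secondary and control cells became 1 with the replicate block (miR-2138), 2 with slide as a term and between 0 and 4 when 1 array was left out. The 3 called between secondary and Rb-depleted primary cells became 0 with 75th percentile scaling, the replicate block or slide as a term, 1 with the median spot signal, and between 0 and 3 when 1 array was left out. The 3 meeting the step with Dunnett's test became 1 with 75th percentile scaling, the replicate block or slide as a term, 0 with the median spot signal, 0 with Benjamini-Hochberg adjustment and between 1 and 2 when 1 array was left out. These alternatives, except the last adjustment, were added for that step after the data were seen. Deviations of same-numbered arrays from their group means had correlations from -0.141 to 0.134. In a group of 2 arrays these deviations mirror each other, so the correlations cannot show whether the numbers pair the arrays. The replicate number was used only in the replicate block. Relative to the sum of the other miRNAs, the 7 entries together stood at 68.6% in control primary, 68.8% in Rb-depleted primary and 79.6% in Rb-depleted secondary cells. The difference of miR-1274a between secondary and control cells turned to -0.30 and -0.21 with total-signal scaling with and without the 7 entries in the sum, -0.11 with 75th percentile scaling, -0.56 with no normalization and -0.02 with the median spot signal. With the median spot signal, miR-1983 and miR-2133 stood at 0.02 and 0.01 in Rb-depleted primary against control cells. Of 393 differences recomputed, 338 were counted as kept, 35 lost their call, 13 gained one and 7 turned direction. A difference of 0.00 on the deposited values has no direction and could not be counted as turned. This holds for miR-1937b in all 3 comparisons and for miR-720 between secondary and control cells. The 338 also include the values under the filter on detection, which could not differ. The cause was not tested. A filter on detection left all 252 miRNAs and changed nothing.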
